A study of Caenorhabditis elegans with 2 samples.

Results

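The srg, srt, sru, srv and srxa genes encode nematode chemoreceptors, and the data below show where HLH-4, a basic helix-loop-helix factor, was found at their promoters in first-stage (L1) larvae of Caenorhabditis elegans. Members were all protein-coding genes of the Ensembl WBcel235 annotation with one of these family names followed by a number: 208 of 19973 protein-coding genes, with 61 srg, 61 srt, 39 sru, 30 srv and 17 srxa genes. The animals were whole hermaphrodites of strain OP523, which carries the unc-119(tm4063) allele and the integrated transgene wgIs523, a stable source of HLH-4 carrying GFP-FLAG at its C-terminus, collected 6 hours after the end of synchronization by starvation. DNA bound by the tagged factor was recovered with an anti-GFP antibody from sonicated chromatin, in 2 biological replicates of this 1 strain. No untagged or control library was analysed here, the sources used here do not give the promoter that drives the transgene, and a signal from whole animals does not say in which cells the factor was bound.

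These families are G-protein-coupled receptors with 7 transmembrane segments that greatly expanded in nematodes. They lie in clusters of related genes and are expressed largely in chemosensory neurons, where each neuron makes many receptors. Together with the srx genes, which the choice by name left out, they form the Srg superfamily. HLH-4 belongs to the Achaete-Scute family, whose members pair with an E-protein and bind the E-box, and it is known for its part in the identity of the ADL chemosensory neurons. Such pairs prefer E-boxes with a G or C centre. Those counted here were CAGCTG, which reads alike on both strands, and CACCTG, whose other strand reads CAGGTG. The name CASSTG is used below for these only. With S as G or C the letters also fit CACGTG, which was not counted as CASSTG.

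HLH-4 peaks stood at 7 of the 208 genes: srv-15, srxa-15, srg-5, srv-4, srt-19, srg-22 and sru-29. A peak here is 1 of the 545 that passed the authors' analysis of reproducibility between replicates (the optimal set), whose summit fell in a window reaching 2000 bp upstream and 500 bp downstream of the gene start, with no other protein-coding start nearer. The 7 genes were 3.37% of the members, and 1.56% of all protein-coding genes had such a peak. Each of the 5 families had at least 1. The 7 summits and their E-boxes are printed because they are the sites on which the results turn. Sequences are from the RefSeq WBcel235 assembly (ce11 positions) and are written 5′ to 3′ on the strand of the gene, 50 bp either side of the summit. Capitals mark the CASSTG E-box, except at srv-4, which had none in this window and where they mark a CACGTG E-box. The srg-5 summit lay in an annotated 5′ UTR, so 30 bases around its E-box are given.
srv-15 (chrIV:15906233-15906333, plus strand): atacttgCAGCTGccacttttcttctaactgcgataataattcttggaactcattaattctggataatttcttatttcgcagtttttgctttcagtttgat
srxa-15 (chrV:20642037-20642137, plus strand): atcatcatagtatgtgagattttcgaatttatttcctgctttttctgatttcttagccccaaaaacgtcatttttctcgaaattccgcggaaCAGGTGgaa
srg-5 (chrIII:6264033-6264062, minus strand): gaaataaaaaatCACCTGgaaggaaaataa
srv-4 (chrIV:4288417-4288517, minus strand): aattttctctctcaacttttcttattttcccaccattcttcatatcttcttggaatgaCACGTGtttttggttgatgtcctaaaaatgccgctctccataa
srt-19 (chrV:4283834-4283934, plus strand): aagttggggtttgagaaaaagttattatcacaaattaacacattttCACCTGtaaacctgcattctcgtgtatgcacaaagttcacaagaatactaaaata
srg-22 (chrII:3093588-3093688, minus strand): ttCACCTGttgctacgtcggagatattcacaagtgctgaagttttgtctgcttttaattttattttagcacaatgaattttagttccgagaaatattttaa
sru-29 (chrV:9811315-9811415, plus strand): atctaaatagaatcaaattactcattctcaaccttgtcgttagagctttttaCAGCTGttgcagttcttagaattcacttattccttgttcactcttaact

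The strongest of these peaks was at srv-15 (WBGene00005726, IV 15906582 to 15910091). Its signal value, a score that the authors gave each region, was 89.2 in the list of the pooled replicates, rank 127 of 30000 regions. The overlapping region had a signal value of 31.7 and rank 219 in replicate 1, and 59.3 and rank 90 in replicate 2. The summit was intergenic, 299 bp upstream of the gene start, and its CAGCTG lay 340 bp upstream. Signal values are compared within a list only, because no common scale of the 3 lists is known, so the ranks carry the comparison between replicates. At srxa-15 (WBGene00012847, V 20642196 to 20644380) the pooled signal value was 72.4 and the rank 209, with the summit 109 bp upstream of the start. Replicate 1 gave 31.1 and rank 231 there. Replicate 2 had 2 overlapping regions in place of 1: the one that overlapped most had 21.7 and rank 967, and a stronger one had 45.3 and rank 186, with its summit 121 bp away from the pooled summit. The srxa-15 E-box, 64 bp upstream of the start, lay 44.5 bp from the pooled summit.

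The srg-5 peak was the one member peak inside its gene. It had a pooled signal value of 67.6 and rank 247, and its region ranked 442 in replicate 1 (signal value 23.3) and 204 in replicate 2 (43.4). Measured from the gene start (WBGene00005163, III 6262323 to 6264547, minus strand), the summit lay 479 bp downstream, near the limit of 500 bp. The gene has 2 annotated transcripts, and the summit lay 95 bp upstream of the start of the shorter one, at 6263973, and 206 bp upstream of the first coding base. Of the 113 members with a region, srg-5 was the only 1 whose summit was nearer to another annotated transcript start than to the gene start. The same summit lay 1983 bp upstream of the start of srg-4, a neighbour of the same family, just inside the limit of 2000 bp, and 3853 bp upstream of srg-2.

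The srv-4 peak (gene WBGene00005715, IV 4285403 to 4288432, minus strand) had a pooled signal value of 62.9, rank 290, and was close in rank in the replicates, at 233 in replicate 1 (31.1) and 424 in replicate 2 (30.2). Its summit lay 35 bp upstream of the start, the shortest distance among the 7 peaks, and 1100 bp upstream of F15E6.5, which starts on the other strand. It was the one member peak with no CASSTG E-box within 50 bp, and it had one within 100 bp. Signal values of these 4 peaks were between 62.9 and 89.2, and the median of the 545 optimal peaks was 65.4.

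The remaining 3 peaks were weaker and ranked higher in replicate 2 than in replicate 1, as did those of srv-15, srg-5 and, by its strongest region, srxa-15. The srt-19 peak (gene WBGene00018552, V 4285037 to 4287203) had 49.1 and rank 431 in the pooled list, 17.1 and rank 1169 in replicate 1, and 29.8 and rank 440 in replicate 2. Its summit was the farthest from its start, 1153 bp upstream, and a CACCTG lay 1.5 bp from the summit. The summit also lay 2085 bp upstream of srt-37, just outside the limit. The srg-22 peak (gene WBGene00005179, II 3091503 to 3093452, minus strand) had 45.0 and rank 507, then 16.7 and rank 1304 in replicate 1 and 26.4 and rank 562 in replicate 2, 186 bp upstream. It also lay 2270 bp upstream of srg-21. The sru-29 peak (gene WBGene00005692, V 9811454 to 9812803) was at 43.9 and rank 524, near the lower limit of the optimal set at 43.1, and the summit stood 89 bp before its start and 2462 bp before that of sru-30. The replicates differed on it: the region had 29.5 and rank 448 in replicate 2, and 9.71 and rank 12634 in replicate 1. A second optimal peak, ranking 515, lay 4549 bp upstream of sru-29, out of reach.

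**Figure D1:**
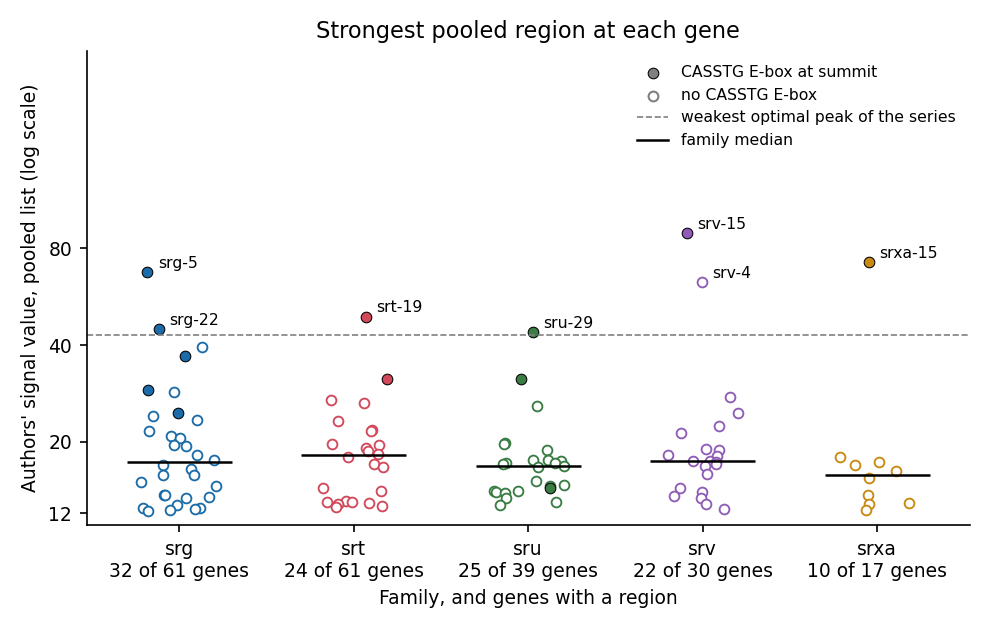
Authors' signal value in the pooled list (log scale) of the strongest region at each of the 113 genes with a region, by family; each point is 1 gene, filled points hold a CASSTG E-box within 50 bp of the summit, and lines are family medians. The 7 genes with an optimal peak stand above the dashed line at 43.1, and the medians lie between 15.8 and 18.2.

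Taking the 545 strongest regions of each replicate by itself, 7 members were reached in replicate 1 and 6 in replicate 2, and 4 of these were shared: srv-15, srxa-15, srg-5 and srv-4. Replicate 1 alone had srg-15, srg-25 and srt-65, and replicate 2 alone had srt-19 and sru-29. The 4 shared genes were 44.4% of the 9 reached in either replicate, and for all protein-coding genes the portion was 44.3% (188 of 424). Among the strongest 5000 regions of each list, 36 members were reached in replicate 1, 28 in replicate 2 and 14 in both, or 6.73% of members beside 3.5% of all genes. These 14 were the 4 shared genes with srg-15, srg-22, srg-25, srg-46, srg-47, srg-48, srt-19, srt-59, sru-3 and sru-4. Of the 14, 7 were srg genes. Members were counted by gene, so the regions of the replicates need not overlap. At srt-59 the pooled region overlapped a region ranking 3381 in replicate 1 and none in replicate 2. At srg-48 the regions ranking 4842 in replicate 1 and 884 in replicate 2 overlapped different pooled regions, ranks 6577 and 1388. The count was 8 when the pooled region had to overlap a region of each replicate by 50% of each. This stricter count was not made for all protein-coding genes.

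**Figure D2:**
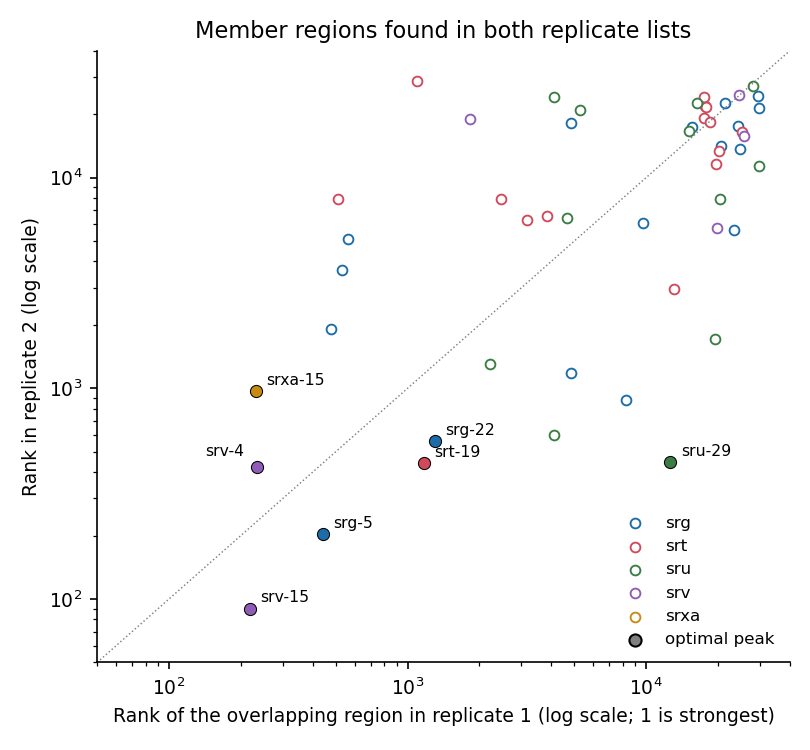
Rank in replicate 1 (horizontal) and replicate 2 (vertical) of the regions that overlap each member region of the pooled list, both on log scales, for the 51 member regions found in both lists; filled points are optimal peaks and the dotted line marks equal rank. The regions at srv-15, srv-4, srg-5 and srxa-15 rank ahead of 1000 in both (for srxa-15 the region that overlaps most is plotted), while that at sru-29 ranks 448 in replicate 2 and 12634 in replicate 1.

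Just outside the optimal set came srg-25 and srg-15. The region at srg-25 had a pooled signal value of 39.4 and rank 634, ranked 529 in replicate 1 and 3663 in replicate 2, and lay over the 5′ UTR with its summit 66 bp downstream of the start and no CASSTG E-box within 50 bp. The summit of replicate 2 lay 98 bp away, 32 bp upstream of the start, and had one. The reverse was seen at 3 genes with the E-box at the pooled summit: the region of replicate 1 at srv-15, the strongest region of replicate 2 at srxa-15 and the region of replicate 1 at sru-4 had none within 50 bp of their own summits. The first coding base of srg-25 was 1088 bp downstream of the pooled summit. The region at srg-15 had 37 and rank 724, ranked 479 and 1909 in replicates 1 and 2, and held 2 CACCTG E-boxes 56 and 100 bp upstream of the start. Its replicates were thus in the opposite order to those of sru-29.

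Next came sru-4 and srt-65, whose pooled signal values were both 31.4, with ranks 1058 and 1059. Their summits are shown because sru-4 carried both kinds of CASSTG E-box side by side and srt-65 a single one far from the start.
sru-4 (chrIV:9498290-9498390, plus strand): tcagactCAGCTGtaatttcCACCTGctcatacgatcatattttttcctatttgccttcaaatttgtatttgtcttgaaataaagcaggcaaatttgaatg
srt-65 (chrV:5173421-5173521, minus strand): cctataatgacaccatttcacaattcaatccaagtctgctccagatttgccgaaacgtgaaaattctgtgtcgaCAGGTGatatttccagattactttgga
The sru-4 summit lay 48 bp upstream of its start and 1971 bp upstream of ugt-21, a gene of the UDP-glucuronosyltransferase family. Its E-boxes were 88 and 76 bp upstream, and its region ranked 2207 in replicate 1, where the summit was 240 bp away, and 1306 in replicate 2. The srt-65 summit lay 538 bp upstream, with the E-box 512 bp upstream, and ranked 512 in replicate 1 and 7922 in replicate 2. A stretch of 155 bp of this srt-65 region had 1 other match in the genome at 90% identity or more.

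A CACCTG E-box also lay at srg-48 (pooled signal value 29, rank 1388), 60 bp upstream of its start. The other genes among the strongest 3 of their families had no CASSTG E-box within 50 bp of the pooled summit. In the srv family the third was srv-17 (pooled signal value 27.6, rank 1688), in srt srt-48 (27.1, rank 1798) and in sru sru-38 (25.9, rank 2178), whose summit lay nearly midway between its own start (937 bp) and that of srsx-21 (997 bp), a gene of another receptor family. After srxa-15 the srxa genes dropped to srxa-7 (17.9, rank 10109) and srxa-6 (17.4, rank 11260). The srg-36 and srg-37 genes, which encode receptors for an ascaroside pheromone of the dauer pathway in the ASI neurons, had no region in the pooled list. Replicate 1 alone had a region assigned to srg-37, ranking 19624 with a signal value of 8.32, where the weakest region of that list had 6.85.

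A region of any strength was assigned to 113 of the 208 members (54.3%), beside 47.7% of all protein-coding genes. With each replicate's own list it was 121 (58.2%) in replicate 1 and 108 (51.9%) in replicate 2, beside 48.4% and 48.1% of all protein-coding genes. Of the 113 genes, 7 (6.19%) had an optimal peak, and 3.27% of all genes with a region did. The strongest region per member had a median rank of 11915 and a median signal value of 17.1, and over all genes with a region these were 12463 and 16.9, so the middle of the members lay close to that of all genes. The 7 peaks lay in 4 of the 6 chromosomes: 3 of the 115 members on chromosome V, 2 of the 52 on IV, 1 of the 16 on III and 1 of the 12 on II. The 9 members on X and the 4 on the remaining chromosome had none. Regions of any strength were found at 41 of the 52 members on IV and 56 of the 115 on V. The shares of all protein-coding genes on each chromosome were not calculated, so these counts are not read as differences between chromosomes.

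Families differed in these counts, and no difference between them was tested. They were also spread unevenly, with 20 of 30 srv and 19 of 39 sru genes on IV and 47 of 61 srt genes on V. Family and chromosome were therefore not told apart. In the pooled list 22 of 30 srv genes (73.3%), 25 of 39 sru genes (64.1%), 10 of 17 srxa genes (58.8%), 32 of 61 srg genes (52.5%) and 24 of 61 srt genes (39.3%) had a region. Replicate 1 had the same order, from 66.7% for srv to 54.1% for srt, over a narrower range. Replicate 2 had another, with sru at 64.1%, srv at 53.3%, srt at 49.2%, srg at 47.5% and srxa at 47.1%. Over all protein-coding genes the share was 47.7% in the pooled list, 48.4% in replicate 1 and 48.1% in replicate 2. In replicate 2 srt, srg and srxa thus lay close to the share of all genes. By the median rank of the strongest region, srxa was the weakest family in all 3 lists (15317.5 in the pooled list, 22122.5 in replicate 1 and 18828.5 in replicate 2), on at most 10 genes a list. The other 4 families changed places: srt was strongest in the pooled list (9688), srg in replicate 1 (7921) and srv in replicate 2 (5971.5). For sru the 3 medians were 12384, 12634 and 12587.

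Of the 165 pooled regions assigned to members, 98 (59.4%) overlapped a region of replicate 1, 97 (58.8%) one of replicate 2, 51 (30.9%) one of each and 21 neither. For the 12865 regions at all genes these portions were 59.4%, 64.1% and 33.0% for both. By family the portion found in both replicates was 41.5% for srg, 38.7% for sru, 36.6% for srt, 16.2% for srv and 6.67% for srxa, which is 1 of 15 regions. All 16 member regions down to rank 2000 were found in both. The share for all genes down to that rank was not calculated, but of their 323 optimal peaks 98.8% were found in both. An overlap of 1 bp was enough, and replicate summits of the 16 lay up to 280 bp from the pooled summit (srg-46, replicate 1). Across the 51 regions the 2 sets of signal values gave r = 0.66 (Pearson) and rho = 0.54 (Spearman); across 4241 regions at all genes r was 0.79 and rho 0.28. These are descriptions over regions that share 2 libraries, and the pooled list was itself made from both replicates.

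Most member summits lay upstream of the start, and so did most of the window that assigned them (2000 bp upstream, 500 bp downstream). A majority upstream is thus largely set by the window, which also bounds the distances. The strongest region was upstream at 94 of the 113 genes (83.2%), beside 75.1% for all genes with a region. The median distance from the start was 637 bp for members and 494.5 bp for all genes, and 50 members (44.2%) beside 50.6% of all genes had the summit within 500 bp. Families again spread: the median distance was 314 bp for srxa, 457 bp for srg, 484 bp for sru, 796.5 bp for srv and 863 bp for srt. Only 6 of 24 srt summits were within 500 bp, and 17 of 32 srg summits were. Of the 7 peaks, 5 were no more than 299 bp upstream of the start. Over all 165 member regions, 91 summits (55.2%) were intergenic, 38 (23.0%) in coding exons, 20 in introns, 7 in pseudogenes, 4 in non-coding RNA exons, 3 in 3′ UTRs and 2 in 5′ UTRs.

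**Figure D3:**
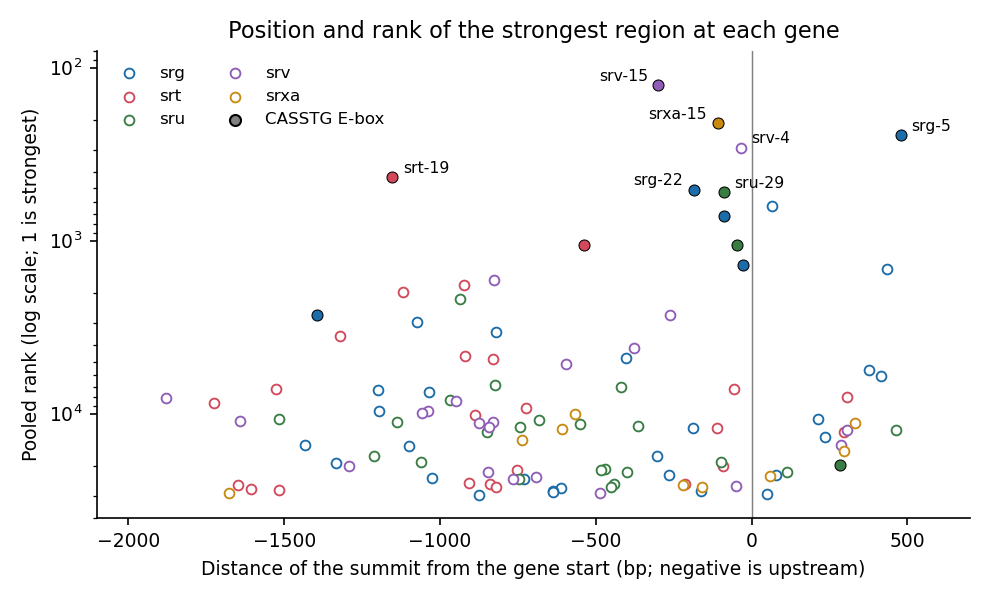
Distance of the summit from the gene start (horizontal, bp, negative is upstream) and pooled rank (vertical, log scale, strongest at the top) of the strongest region at each of the 113 genes; colours are families and filled points hold a CASSTG E-box within 50 bp. Most points with an E-box lie near the top, and srt-19 at 1153 bp upstream and srg-5 at 479 bp downstream are the 2 peaks away from the cluster before the start.

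CASSTG E-boxes were concentrated in the strongest member regions. Counted to 50 bp on either side of a summit, they were present in 6 of the 7 optimal peaks (85.7%, 95% exact interval 42.1% to 99.6%), in 4 of 9 regions from rank 546 to 2000 (44.4%, 13.7% to 78.8%), in 1 of 10 from 2001 to 5000, in 1 of 55 from 5001 to 15000 (1.82%, 0.046% to 9.72%) and in 2 of 84 from 15001 on (2.38%, 0.29% to 8.34%). Regions at all protein-coding genes went from 46.1% to 15.6%, 7.37%, 4.69% and 4.65% in the same bands. The other chemoreceptor families together went from 79.2% to 38.5%, 15.6%, 12% and 8.19%. The members' interval held both shares in each band except that from 5001 to 15000, where the 12% of the other receptors lay above it. The intervals count regions from the same libraries as separate, so they are no test between the groups. Over all ranks, 14 of 165 member regions (8.48%) held a CASSTG E-box, beside 6.6% of regions at all genes. This order turned with the width searched: within 25 bp of the summit the shares were 2.42% for members and 3.58% for all genes. Of the 7 optimal peaks, 3 held the E-box within 25 bp, beside 31.0% of optimal peaks at all genes. Within 100 bp the shares over all ranks were 15.2% and 11.4%. At that width 7 of the 7 optimal peaks held it, beside 56.7% of optimal peaks at all genes. The share in the replicates' own lists was 8.59% in replicate 1 and 13.4% in replicate 2 (11% ± 3.42, SD, n = 2).

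**Figure D4:**
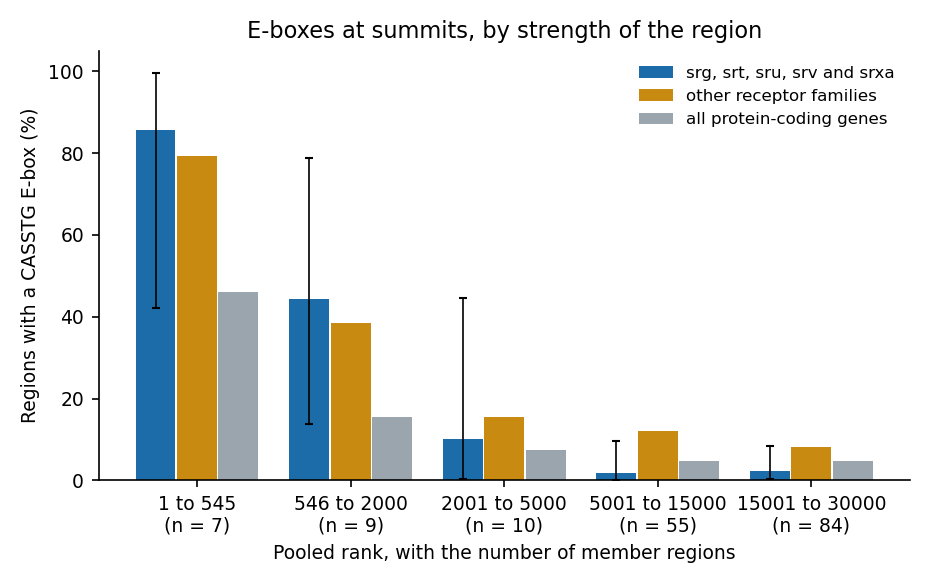
Share of regions with a CASSTG E-box within 50 bp of the summit (per cent) in 5 bands of pooled rank, for members, for other chemoreceptor families and for all protein-coding genes, which include the other groups; error bars are 95% exact binomial intervals for the members. The members go from 85.7% in the optimal set to 2.38% in the weakest band.

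By class, CACCTG (read with CAGGTG) lay at 12 member regions (7.27%, beside 4.45% of regions at all genes). CAGCTG lay at 3 (1.82%, beside 2.38%). Shares by class down to rank 2000 were not calculated for all genes. Among the 16 member regions down to rank 2000, 8 had CACCTG and 3 had CAGCTG, with sru-4 holding both. CAAATG, the most frequent E-box over all 165 regions (24, or 14.5%, beside 8.91% of regions at all genes), was at 1 of these 16. By family, 6 of 41 srg regions, 4 of 31 sru, 2 of 41 srt, 1 of 37 srv and 1 of 15 srxa regions held CASSTG. The srg share was 14.6% in the pooled list, 10% in replicate 1 and 25% in replicate 2. For srv it was 2.7%, 3.85% and 9.09%, on few regions.

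The E-boxes at member peaks lay off the summit in several cases. The nearest CASSTG was 1.5 bp from the summit at srt-19, 4.5 bp at sru-29, 20.5 bp at srg-5, 40.5 bp at srv-15, 44.5 bp at srxa-15 and 45.5 bp at srg-22. That is 3 of 6 beyond 40 bp, with a median of 30.5 bp, and of 149 such peaks at all genes 14 (9.4%) were beyond 40 bp, with a median of 15.5 bp. At srv-15 the summit of replicate 1 lay 30 bp farther from the E-box than the pooled summit, and that of replicate 2 lay 9 bp nearer. At srg-22 the replicate summits were within 4 bp of the pooled one. Read as CAGGTG, the E-boxes at srxa-15, srt-19 and srg-22 had an A before the CAGGTG and the one at srg-5 did not (3 of 4), and 55 of 124 such sites (44.4%) at all genes with an optimal peak had one.

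The DNA upstream of the members held CASSTG about as often as that of other genes. Within 500 bp upstream of the start, 46 of 208 members (22.1%) had one, beside 19% of all protein-coding genes and 36.9% of the other chemoreceptor genes. The share was 35.3% for srxa, 33.3% for srv, 24.6% for srg, 15.4% for sru and 14.8% for srt. Of the 46 members with the E-box, 5 (10.9%) had an optimal peak, and of the 162 without it 2 (1.23%). For all protein-coding genes these were 3.21% and 1.17%, and for the other chemoreceptor genes 9.41% and 1.01%. Of the 46, 29 had a region of any strength, so 17 had the letters and no region. A match of 6 letters is a description of the sequence, and no match was read as a bound site.

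Set beside the other receptor families, the 3.37% of members with an optimal peak compared with 4.83% of 580 genes of the Str superfamily (srd, srh, sri, srj and str), 4.03% of 124 of the Sra superfamily (sra, srab, srb and sre) and 3.81% of 289 of the solo families (srw, srz, srbc, srsx and srr). The srx genes had 1 peak (0.99% of genes). These shares were not tested against each other. The signal values of the member peaks reached 89.2, and the strongest peaks of the Str, Sra and solo genes reached 142.9, 274.1 and 354.7.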

How the data were processed

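HLH-4 binding was measured by ChIP-seq in 2 biological replicates, numbered in the labels, which form 1 group. The deposited ce11 lists give each region a signal value made against a control by the authors, per the text deposited beside the lists; the sources used here do not give its normalization, the aligner, the peak caller or the read depth. Signal values were therefore ranked and compared only within 1 list. The deposited summit offset, the other column used, gave the summit; positions are 1-based. The ce10 lists were not used.

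Genes came from Ensembl release 115 and sequence from the RefSeq WBcel235 assembly, whose chromosome lengths hold all regions. E-boxes were searched on both strands. Regions were compared with the genome by BLAST+ 2.17.0 (at least 90% identity over at least 100 bp). The steps for assignment and E-boxes were tested on simulated data. Python 3.11.15, pandas 2.3.3, scipy 1.17.1 and matplotlib 3.10.9 were used.

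The members and the lists were chosen with earlier results of these data known. Genes were named where they had an optimal peak or were among the 3 strongest of their family, plus srg-36 and srg-37 and any second gene in reach of such a summit; srg-15 and srg-48 were named after their values were seen, as were genes listed only by their presence near a peak or in a replicate. No test was made, since the design holds 1 group; the 95% intervals (Clopper-Pearson, exact) were taken over regions and cover counting error only. Alternatives covered the promoter window, gene assignment, E-box window, number of regions, overlap and each replicate's own list.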

Additional observations from a re-analysis of the deposited data

How the results depend on the processing

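Under the alternative windows and assignment, each of the 7 genes with an optimal peak kept its pooled rank where its summit stayed in reach, except sru-29 with 5000 bp upstream to 1000 bp downstream, which took the peak ranking 515. With 1000 bp upstream to 200 bp downstream, srg-5 and srt-19 were out of reach and 5 genes had a peak; with the wide window 8 had one and with every gene in reach 9. Among the 272 strongest peaks 3 were at members. In replicate 1 by itself srt-19, srg-22 and sru-29 ranked beyond 545, and in replicate 2 srg-22 did (562). The 545 strongest regions of each replicate's own list, with no filter for reproducibility, reached 7 members in replicate 1 and 6 in replicate 2. Of these, 4 were shared. By these lists 108 to 121 members had a region. Their median rank was 12443 to 12484, the median distance 442 to 624 bp and the E-box share 8.59% to 13.4%. The median rank was 15178 with the narrow window and 11830.5 with every gene in reach, and the median distance was 470 bp with the narrow and 823 bp with the wide window. Members reached in both replicates numbered 9 with the narrow window, 7 among the strongest 2000, 24 among the strongest 10000 and 8 when the pooled region had to overlap a region of each replicate by 50% of each. Among the strongest 2000, 367 of the 19973 protein-coding genes were reached in both. For the other 3 of these settings the share of all genes was not calculated. Nor was it for the 5, 8, 9 and 3 members with a peak under the alternatives above. The E-box share was 2.42% with 25 bp and 15.2% with 100 bp either side, beside 3.58% and 11.4% of regions at all genes; with 25 bp the members' share was thus below that of all genes and with 50 and 100 bp above it. Leaving out the 13 member regions with a copy elsewhere, an alternative chosen after seeing the data, left 7 peaks, 107 genes and 8.55%. The cause of these shifts was not tested, beyond what the windows themselves set. No paired analysis was possible because both replicates form 1 group. Read depth is unknown, so a region missing from a list does not show that the site was unbound.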

Other observations

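A few of the genes that carry and relay the receptors' signal had peaks of their own. Of 44 listed genes for receptor trafficking and signalling, 35 had a region (79.5%, beside 47.7% of all protein-coding genes). An optimal peak stood at 3 of them (6.82%, beside 1.56% of all protein-coding genes). These were gpc-1, which encodes a G-protein gamma subunit (signal value 57.6, rank 333, summit 75 bp upstream), osm-9, which encodes a TRPV channel subunit of sensory neurons (50.3, rank 420, 228 bp upstream), and egl-30, which encodes the Gq alpha subunit (45.0, rank 508, 50 bp upstream). The first and second held a CASSTG E-box and the summit at egl-30 did not. Just below the optimal set were gpa-1 (34.6, rank 827) and gpa-3 (33.4, rank 904), which encode G-protein alpha subunits of chemosensory neurons, and both held the E-box. Of the listed genes next in rank, odr-3 (31.4, rank 1067) and bbs-8 (29.9, rank 1253) did not hold it and gpa-11 (29.7, rank 1290) did. The receptor trafficking genes odr-4 and odr-8 had weak regions only, with ranks 16008 and 23837.

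Optimal peaks also lay near members without being assigned to them. A peak with a signal value of 75.2 (rank 191) lay 1572 bp upstream of srv-13 and 1163 bp upstream of sfrp-1, the nearer start. Another (66.6, rank 256) lay 4233 bp upstream of srv-9 and 514 bp upstream of the chemoreceptor gene srd-18. One more (60.4, rank 311) lay 1935 bp upstream of T01B7.13, the nearer start, and 3045 bp upstream of srg-15, which had its own weaker region at rank 724. These 3 peaks held a CASSTG E-box. So did the peak at rank 338, assigned to phat-8 and 3795 bp upstream of srg-17. The peak at rank 426, assigned to ops-1 and 2664 bp upstream of srv-32, held it too. Peaks at rank 458, 3481 bp upstream of srg-55, and at rank 533, 4873 bp upstream of sru-48, held none and were assigned to no gene. The peak at rank 515, 4549 bp upstream of sru-29, was also assigned to no gene and held a CASSTG E-box.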
